A study of Mus musculus with 12 samples.

Results

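Cluster 4 comprised 3884 of the 50550 nuclei in the 25 clusters of embryonic mouse cortex and carries the label of rostral subcortical projection neurons (PNs). Its members were all nuclei that the authors' clustering had placed in it, in the 11 embryos analysed here. Each embryo contributed 203 to 615 of these nuclei. All embryos were C57BL/6J, and their dams received 1 i.p. injection daily from E8.5 to E13.5, which made 6 injections. Dams of the saline group received saline, and dams of the EtOH group received 2.5 g/kg EtOH given as a 25% v/v solution in saline. Cortices from both hemispheres were taken at E14.5 according to the study's methods. The sample labels give embryonic day 14. The saline group held embryos S1-1 and S1-2 of dam S1 and S2-1, S2-2 and S2-4 of dam S2, and the EtOH group held E1-1 and E1-2 of dam E1 and E2-1 to E2-4 of dam E2. Dams S1 and E1 were batch 1 and dams S2 and E2 were batch 2, and a listed saline embryo, S2-3, came without counts and was not used. The paper removed 1 saline sample, unnamed in its text, whose cells were spread differently over the clusters. With 2 dams per treatment, littermates were taken as independent, so the p-values below measure the spread between these embryos.

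Subcortical PNs are glutamatergic neurons of the deep cortical layers that send axons out of the cortex to the thalamus, midbrain, hindbrain and spinal cord. The transcription factors Fezf2 and Bcl11b (Ctip2) direct the corticospinal identity and Sox5 and Tbr1 shape the early-born corticothalamic and subplate neurons. In these neurons the basic helix-loop-helix factor Neurod2 accompanies differentiation, and semaphorins and their plexin receptors steer the growing axons.

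The promoters of Fezf2, which names the identity of the cluster, and of Neurod2, the transcription factor with a fall after EtOH treatment described below, are printed because the levels of both genes are followed through all embryos. Each is the RefSeq window of 250 bases before to 50 bases after the gene's start on GRCm38.p6, read 5′ to 3′ on the minus strand. The Fezf2 window lies inside the GENCODE gene (chr14:12342094-12348189), which begins upstream of the RefSeq start. Capitals mark CAGATG, an E-box of the kind that basic helix-loop-helix factors bind, which was searched on both strands.
Fezf2, chr14:12345816-12346115: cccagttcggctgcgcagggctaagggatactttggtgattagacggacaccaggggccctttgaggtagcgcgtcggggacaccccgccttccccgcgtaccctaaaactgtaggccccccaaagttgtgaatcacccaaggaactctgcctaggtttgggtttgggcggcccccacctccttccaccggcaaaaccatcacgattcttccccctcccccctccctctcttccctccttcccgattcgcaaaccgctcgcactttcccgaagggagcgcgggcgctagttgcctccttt
Neurod2, chr11:98329596-98329895: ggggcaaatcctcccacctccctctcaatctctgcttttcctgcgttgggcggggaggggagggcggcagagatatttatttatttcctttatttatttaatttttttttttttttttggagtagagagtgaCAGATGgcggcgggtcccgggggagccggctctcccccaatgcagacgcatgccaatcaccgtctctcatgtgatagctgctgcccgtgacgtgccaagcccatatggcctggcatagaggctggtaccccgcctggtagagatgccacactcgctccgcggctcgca
The Neurod2 window held 1 match and the Fezf2 window 0, while 17.2% of the 32851 promoters of this length held at least 1. Counted by gene, 19.2% of 27025 genes had a promoter with the motif. Among genes that passed the test in Cluster 4 and had a promoter, 9 of 38 lower genes (23.7%) and 2 of 18 higher genes (11.1%) held the motif. The share was 16.2% (11 of 68) for the genes that the study lists as markers of the cluster. A match is a string of letters in a window and is given as a description.

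The label was first compared with the data. Levels are given as CPM, the UMIs of a gene in all Cluster 4 nuclei of an embryo scaled to 1000000 UMIs, as a mean ± SD over 11 embryos. A level of this kind does not separate fewer nuclei with a transcript from less of it per nucleus. Because the clusters were made from these genes, no test was applied between clusters. Rgs6, a brake on G protein signaling, reached 2318 ± 360 CPM and was higher than in each of the other 24 clusters, followed by Cluster 22 with 1262 ± 321 CPM. Fezf2 stood at 77.7 ± 13.7 CPM, highest of the 25 clusters. Cluster 16, the other cluster rich in Fezf2 and labelled caudal subcortical PNs, followed closely with 68.0 ± 17.1 CPM, and Fezf2 was higher in Cluster 4 than in Cluster 16 in 9 of 11 embryos. Mc4r, the melanocortin 4 receptor, was also highest here but reached only 5.1 ± 2.2 CPM. All 3 markers given for the cluster therefore ranked first in it. The study's rostral label rests on expression of Mc4r, which it uses as a rostral marker. The position itself could not be read from dissociated nuclei.

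Among further regulators of subcortical identity, Sox5 (9103 ± 382 CPM), the LIM cofactor Ldb2 (1300 ± 107 CPM) and Tshz3 (649 ± 86.1 CPM) were highest in Cluster 4. Rgs6, Sox5, Ldb2 and Tshz3 overlap annotated genes on the other strand. Tbr1, the corepressor Tle4 (683 ± 226 CPM) and the GATA cofactor Zfpm2 (2241 ± 230 CPM) had the second highest level of the 25 clusters and Bcl11b (1200 ± 167 CPM) the third. Zfpm2 and Crym were lower than in Cluster 16 in all 11 embryos. Crym, a gene of corticospinal neurons that the study uses as the caudal marker of Cluster 16, had 5.1 ± 2.5 CPM against 33.8 ± 20.6 CPM. The upper-layer factors Cux1 (86.7 CPM) and Cux2 (26.1 CPM) were lower in Cluster 4 than in any other cluster. The vesicular glutamate transporter Slc17a6 (20.6 ± 8.2 CPM) was also lowest here, which runs against the glutamatergic type of the neurons in the label. The whole list of 11 callosal and upper-layer genes was not lowest here. It summed to 1271 ± 160 CPM, rank 14 of 25 clusters, against 3217 CPM in Cluster 22, where it was highest. Cluster 1, the most abundant callosal PN cluster, had 39.7 ± 5.8 CPM of Fezf2.

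Of the 99 genes that the study lists as markers of the cluster, a list chosen on these samples and thus not independent evidence, 55 were highest in Cluster 4 and 90 had it among their 3 highest clusters. Furthermore, 84 were higher than in Cluster 1 and 68 higher than in Cluster 16 in all 11 embryos. Gm28928, a predicted gene, had 220 CPM against 29.1 CPM in the next cluster, and the CNC transcription factor Nfe2l3 had 156 CPM against 34.8 CPM.

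**Figure D1:**
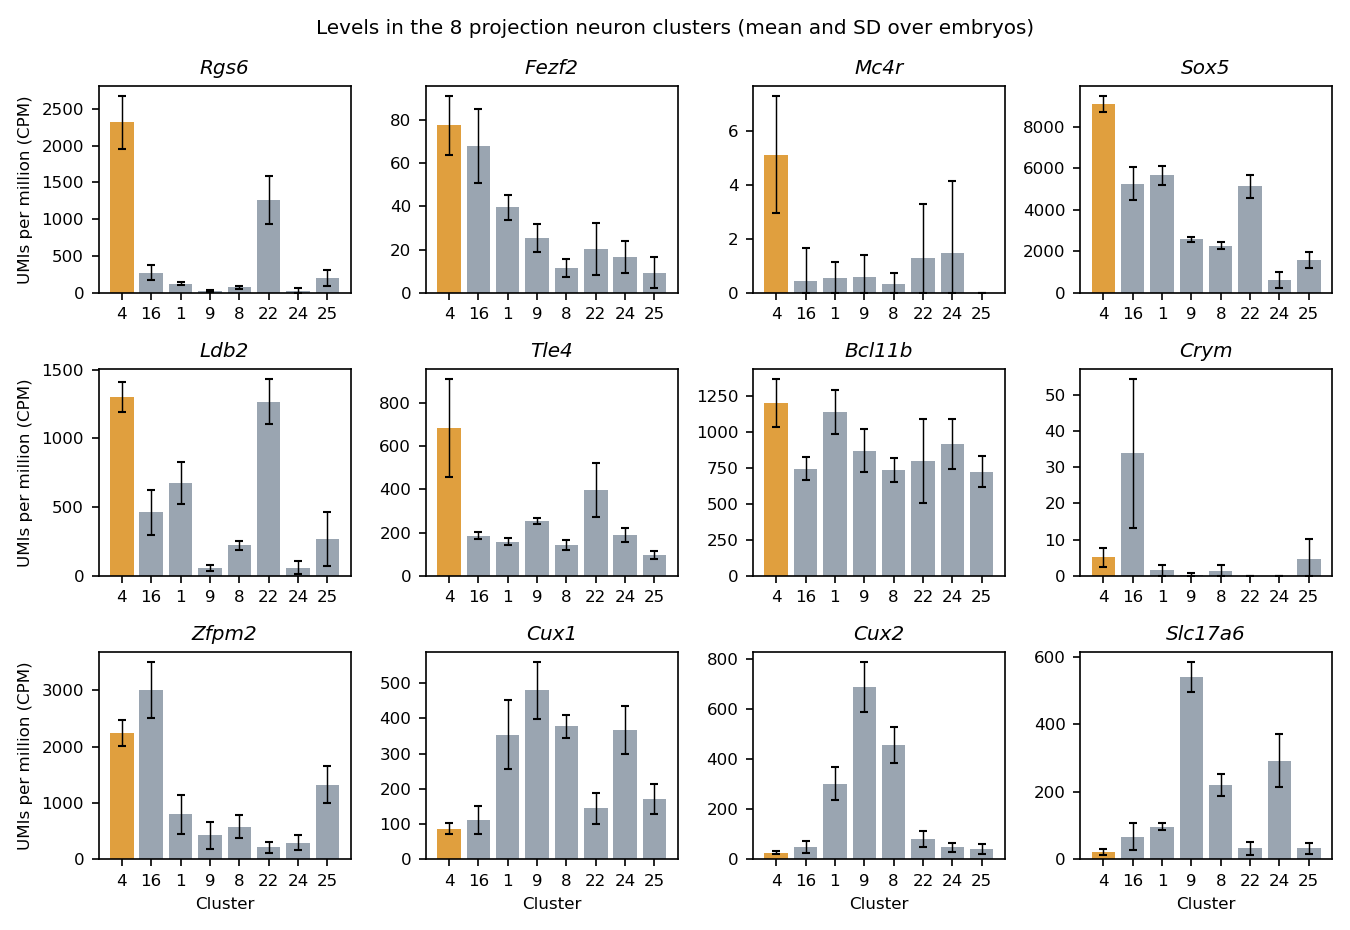
Bars give the mean level of 12 genes in CPM and whiskers the SD over embryos in the 8 PN clusters, with Cluster 4 in orange. Rgs6, Fezf2, Mc4r and Sox5 are highest in Cluster 4, Crym and Zfpm2 are higher in Cluster 16, and Cux2 and Slc17a6 are lowest in Cluster 4.

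Embryos were compared before the treatments, since a library that stands apart can carry a comparison. The summed counts of Cluster 4 ranged from 1681417 UMIs in E1-1 to 8910835 UMIs in S1-1. On the first principal component of the sums, which held 34.9% of the variance, S1-1, S1-2, S2-1 and S2-2 lay between -38.9 and -20.6 and the 6 EtOH embryos between 13.2 and 17.1. The embryo labelled saline S2-4 lay at 14.4, among the EtOH embryos. By the chi-square statistic per gene, its counts were also closer to the EtOH embryos (1.90 to 3.68) than to the other saline embryos (6.68 to 12.8), and 1.90 was the lowest value of all pairs of embryos, so no pair matched within the sampling noise, for which 1 would be the value. It was not alone in standing apart, since S1-1 and S1-2 were also closer to the EtOH embryos (4.73 to 7.92) than to S2-1 and S2-2 (8.72 to 15.9, the latter the highest of all pairs). The statistic also grows with the counts compared, and the pairs were not brought to a common depth. Whether the library of S2-4 carries the right label could not be checked here, and each saline mean, fold change and call with all embryos rests on it. The label was kept, and the results that turn on it are given with and without it. S2-4 was singled out because its values lay with the EtOH embryos. Fits without it can therefore give too small p-values and too many calls, and are read as a description. Of the Cluster 4 barcode sequences, 3 of 3880 occurred in more than 1 embryo.

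**Figure D2:**
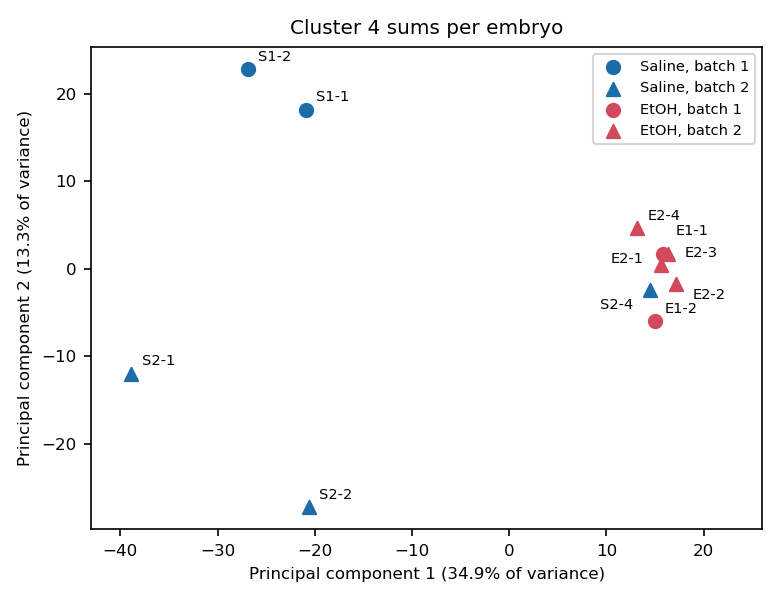
Each point is the summed Cluster 4 counts of 1 embryo on the first and second principal components, which hold 34.9% and 13.3% of the variance. The embryo labelled saline S2-4, at 14.4 on the first component, lies among the 6 EtOH embryos at 13.2 to 17.1.

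The genes of subcortical identity did not pass the test between EtOH and saline treated embryos when all 11 embryos were compared. Genes were tested with edgeR on the summed counts and called at an adjusted p under 0.05 with a fold change below 0.8 or above its inverse. Of 16 subcortical genes tested, 0 were called, with a median log2 fold change of 0.05 beside 0.01 over all 11402 genes tested, and without S2-4 0 were called higher and 1 lower, Fezf2, beside 8.97% and 3.51% of all genes tested. At an unadjusted p under 0.05, 2438 of all genes tested passed. Called genes made up 0.333% of those tested for higher and 0.386% for lower levels after EtOH treatment.

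Fezf2 had 75.1 CPM in S1-1, 88.1 in S1-2, 87.6 in S2-1, 101.6 in S2-2 and 72.7 in S2-4, and 58.1 to 94.6 CPM, with a median of 69.3, in the EtOH embryos. The groups overlapped, and the 4 EtOH embryos of batch 2 lay below every saline embryo. The log2 fold change was -0.28 ± 0.11 (SE, adjusted p = 0.169, edgeR), and -0.34 with an adjusted p of 0.0445 without S2-4. When the batch also entered as a block it was not called (adjusted p = 0.0572, edgeR). The log2 fold change was -0.04 in batch 1 alone and -0.41 in batch 2 alone, or -0.54 there without S2-4, and the difference between the batches was not tested.

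Rgs6 showed a different arrangement, with 2507 CPM in S1-1, 2553 in S1-2, 1824 in S2-1, 1480 in S2-2 and 2409 in S2-4, and 2199 to 2613 CPM (median 2493) in the EtOH embryos. Only S2-1 and S2-2, littermates of batch 2, lay below all other embryos. Its log2 fold change was 0.16 ± 0.15 (adjusted p = 0.575, edgeR). Mc4r was likewise lowest in S2-1 (1.08 CPM) and S2-2 (1.92 CPM), with 4.54 to 6.62 CPM in the other saline embryos and 3.94 to 8.33 CPM in the EtOH embryos (log2 fold change 0.48 ± 0.33, adjusted p = 0.435, edgeR).

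The same pair of littermates stood apart at other deep-layer genes. Tle4 had 838, 690, 270, 229 and 743 CPM in S1-1, S1-2, S2-1, S2-2 and S2-4, and 662 to 908 CPM (median 807) in the EtOH embryos. Foxp2, a transcription factor of corticothalamic neurons, had 940, 817, 336, 274 and 788 CPM in the same order, and 653 to 922 CPM (median 760) after EtOH. Hs3st4, a heparan sulfate sulfotransferase, had 3317, 3028, 1151, 1214 and 2727 CPM, and 2761 to 3433 CPM (median 3038) after EtOH. Thus the saline embryos of batch 1 and S2-4 lay with the EtOH embryos for these genes, and the adjusted p was 0.487 for Tle4, 0.701 for Foxp2 and 0.5 for Hs3st4 (edgeR).

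In batch 2 alone without S2-4, where S2-1 and S2-2 were the saline group, these differences passed the test with log2 fold changes of 1.74 for Tle4 (adjusted p = 2.1e-09), 1.40 for Foxp2 (adjusted p = 0.013) and 1.45 for Hs3st4 (adjusted p = 2.3e-10), all from edgeR. In batch 1 alone they were -0.15, -0.31 and -0.23. Within a batch each treatment is 1 dam, so these p-values measure the spread between littermates. These genes are shown because S2-1 and S2-2 were low at them, and S2-4 was left out, so passing was close to fixed. With S2-4 kept in, batch 2 alone gave 0 calls. Bcl11b ran the other way and was highest in S2-1 (1507 CPM) and S2-2 (1488 CPM), against 1023 to 1317 CPM in the other 9 embryos. S2-1 and S2-2 were the 2 lowest embryos at 55 of the study's 99 marker genes (55.6%) and at 532 of the 11402 genes tested (4.67%), and they were the 2 highest at 6 of 99 (6.06%) and 1128 of 11402 (9.89%). The values of the marker genes therefore split the saline group itself. S2-4, a littermate of this pair, did not share its low values.

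**Figure D3:**
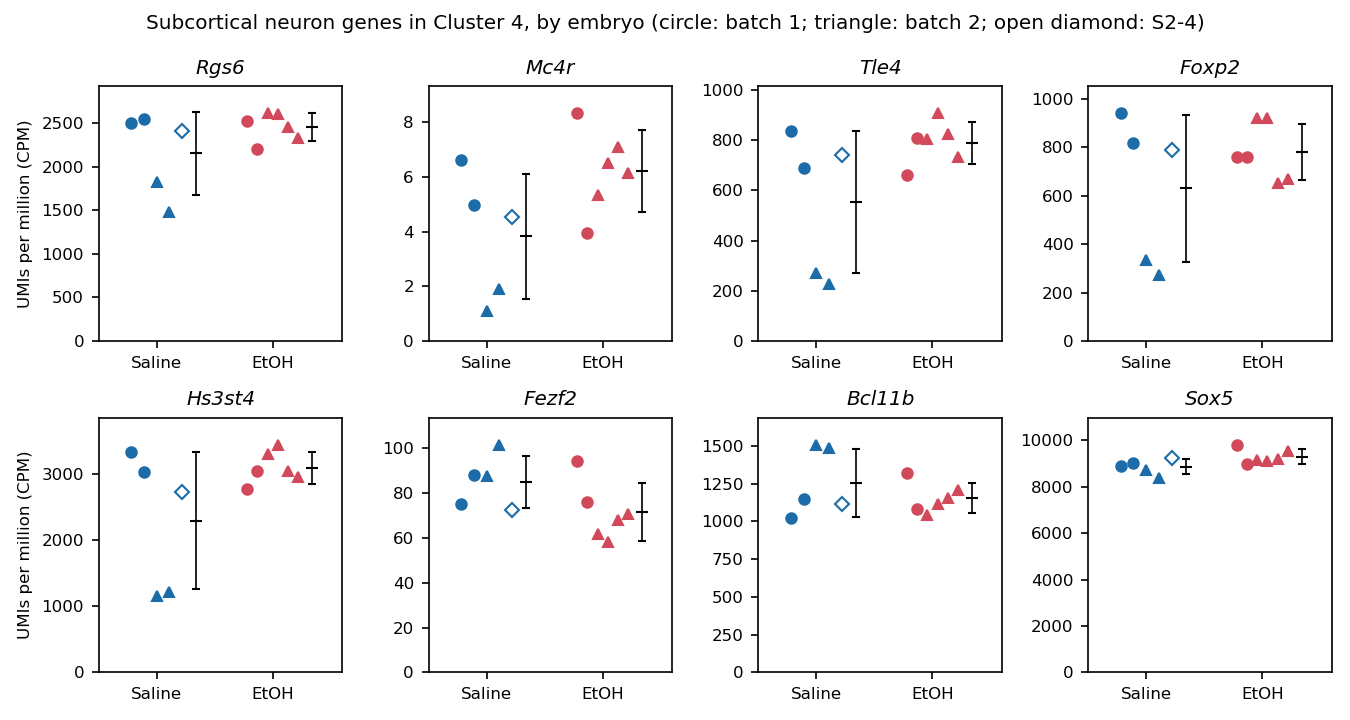
Points give the CPM of 8 genes in each embryo, with circles for batch 1, triangles for batch 2 and an open diamond for S2-4, and bars the mean and SD of each group. The saline embryos S2-1 and S2-2 are lowest for Rgs6, Mc4r, Tle4, Foxp2 and Hs3st4 and highest for Bcl11b (1507 and 1488 CPM).

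With all 11 embryos, 82 genes passed the test, 38 higher (0.333% of those tested) and 44 lower (0.386%) after EtOH treatment. All 82 were also called in the same direction without S2-4, whereas leaving out any other embryo left 0 to 3 calls, and the adjusted p of most lay just under 0.05. The counts moved with the scaling and the tool. Upper-quartile scaling gave 1 higher and 2 lower, and total UMIs only gave 1 higher and 0 lower. DESeq2 gave 310 higher and 177 lower, and limma voom with dam as a random block 94 higher and 19 lower. The batch as a block left 1 call, counts summed per dam 1 and nuclei thinned to 2000 UMIs 11. Among the lower genes, Neurod2 had 181.8 CPM in S1-1, 225.8 in S1-2, 203.0 in S2-1, 204.3 in S2-2 and 140.9 in S2-4, and 122 to 133 CPM (median 127) in the EtOH embryos, a log2 fold change of -0.62 ± 0.10 (SE, adjusted p = 0.0495, edgeR). Every saline embryo was above every EtOH embryo, with S2-4 the nearest to them. Genes called on these embryos tend to have separate groups, so here and below such separation is no further evidence. The share of all genes tested with separate groups is not given here. Without S2-4 the value was -0.71 (adjusted p = 3.1e-07, edgeR), and each batch alone gave a fall, of 0.77 on the log2 scale in batch 1 and 0.66 in batch 2 without S2-4. Neurod2 was called on these same embryos, so the batches are not an independent check. With S2-4 kept in, 0 genes were called in batch 2 alone. With all embryos and the batch as a block, 0 genes were called lower, so Neurod2 and the other lower genes lost their calls. The gene lies at chr11:98325415-98329648 on the minus strand.

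Rbpj, the nuclear effector of Notch signaling, had 127.9, 124.2, 146.7, 138.1 and 105.4 CPM in S1-1, S1-2, S2-1, S2-2 and S2-4, and 85.0 to 99.2 CPM (median 92.0) after EtOH, a log2 fold change of -0.49 ± 0.08 (adjusted p = 0.0382, edgeR). The groups did not overlap. Tcf12, a partner of basic helix-loop-helix factors, had 232.8 to 341.8 CPM in saline and 186 to 231 CPM in EtOH embryos, and Tox3, an HMG-box protein, had 158.7 to 219.9 CPM and 130 to 157 CPM. Their log2 fold changes were -0.46 ± 0.08 and -0.40 ± 0.08 (adjusted p = 0.0495 for both, edgeR), again without overlap. Rbpj and Tcf12 overlap other annotated genes on the opposite strand. The study's methods name the default parameters of Cell Ranger, which count reads in the sense of a gene, so such overlaps are given as annotation.

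Sema3c, a secreted semaphorin that guides cortical axons, had the second smallest adjusted p, shared with Rbpj. It had 30.9 CPM in S1-1, 25.3 in S1-2, 35.7 in S2-1, 41.6 in S2-2 and 23.9 in S2-4, and 11.9 to 21.3 CPM (median 15.9) in the EtOH embryos. The groups did not overlap, and the log2 fold change of -0.99 ± 0.16 (adjusted p = 0.0382, edgeR) was -1.08 without S2-4. The gene lies at chr5:17574281-17730268 on the plus strand and overlaps no gene on the other strand. Syt4, a synaptotagmin of neuronal vesicles, had 16.7 to 32.1 CPM in saline and 10.1 to 13.9 CPM in EtOH embryos (log2 fold change -0.82 ± 0.16, adjusted p = 0.0495, edgeR), and Gm26658 overlaps it on the other strand.

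Other genes were also lower. Tnrc6a, a scaffold of microRNA silencing, had 68.1, 74.7, 80.0, 66.8 and 50.7 CPM in S1-1, S1-2, S2-1, S2-2 and S2-4, and 42.2 to 51.5 CPM after EtOH, so that S2-4 overlapped the EtOH embryos. The zinc finger gene Zmym5 had 56.0 to 64.4 CPM and 44.9 to 50.8 CPM, without overlap. Their log2 fold changes were -0.55 ± 0.11 and -0.37 ± 0.07 (adjusted p = 0.0495 for each, edgeR).

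The summed level of 22 cell cycle genes ranked 20 of 25 clusters, with 183.9 to 259.6 CPM in saline and 134.8 to 217.3 CPM in EtOH embryos. Cenpf, a kinetochore protein, had 11.5 to 17.4 CPM in saline and 3.78 to 9.31 CPM in EtOH embryos, a log2 fold change of -1.01 ± 0.20 (adjusted p = 0.0495, edgeR), and Gm37239 overlaps it on the other strand. The mitotic genes Aspm, Hmmr and Sgo2a passed the test in the same direction, with log2 fold changes of -0.91, -1.04 and -1.24. They lie outside the list and were named after their values were seen. Of the 3884 nuclei, 243 had a Cenpf UMI, 187 an Aspm UMI, 118 a Hmmr UMI and 126 a Sgo2a UMI, while 640 had a UMI of Mki67 and 335 of Top2a, other genes of dividing cells. Mki67 and Top2a are on the list and were called neither with all embryos nor without S2-4. Mcm7, a subunit of the replication helicase, moved the other way, with 12.6 to 15.1 CPM in 4 saline embryos, 22.7 in S2-4 and 21 to 29.7 CPM after EtOH (log2 fold change 0.67 ± 0.14, adjusted p = 0.0495, edgeR). Mcm7 overlaps Cops6 and Ap4m1 on the other strand. Over the cell cycle list, 1 of 15 genes tested was called higher and 1 lower, beside 0.333% and 0.386% of all genes tested. The median log2 fold change was -0.32, with 5 of the 15 above 0. Without S2-4 the counts were 1 higher and 3 lower (Cenpf, Knl1 and Kif11), beside 8.97% and 3.51%.

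Among the genes called higher, Efhb, which encodes an EF-hand protein, had the smallest adjusted p. It had 4.26 CPM in S1-1, 5.64 in S1-2, 6.85 in S2-1, 4.93 in S2-2 and 6.99 in S2-4, and 9.46 to 21.3 CPM (median 15.2) in the EtOH embryos. The groups were separate, and the log2 fold change was 1.51 ± 0.21 (adjusted p = 0.0117, edgeR). It was the only gene called when the batch entered the model as a replicate block (adjusted p = 0.016, edgeR). It was not called with counts summed per dam, in batch 2 alone with S2-4, or without S1-1, E2-2 or E2-4. Both batches showed the rise, with log2 fold changes of 1.41 in batch 1 and 1.63 in batch 2 without S2-4. Efhb was called on these same embryos, so this is not an independent check. Hook2, a linker of vesicles and microtubules, had 41.5 to 48.8 CPM in saline and 52.4 to 64.1 CPM in EtOH embryos (log2 fold change 0.38 ± 0.07, adjusted p = 0.0495, edgeR).

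Other higher genes overlap a gene on the opposite strand. Phykpl, an enzyme of lysine metabolism opposite Hnrnpab, had 23.7, 29.6, 33.2, 34.8 and 51.7 CPM in S1-1, S1-2, S2-1, S2-2 and S2-4 and 53.5 to 69.4 CPM after EtOH (log2 fold change 0.85 ± 0.15). P2ry12, the ADP receptor of microglia, lies opposite Med12l and had 1.68 to 3.85 CPM and 5.68 to 8.35 CPM (log2 fold change 1.32 ± 0.24). 5430419D17Rik lies opposite Fgfr2 and had 1.08 to 4.02 CPM and 4.73 to 10.0 CPM. In each of these the groups did not overlap and the adjusted p was 0.0495 (edgeR). The whole list of 10 non-neuronal markers that holds P2ry12 summed to 13.7 to 21.6 CPM in saline and 14.9 to 21 CPM in EtOH embryos, and 0 of its genes were at 0 counts over the cluster.

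The higher genes differed in kind from the rest. Of the 38, 39.5% of those matched to the annotation were not protein-coding, against 8.72% of the genes tested and 4.76% of the lower genes, and 73.7% overlapped a gene on the other strand, against 51.6% and 45.2%. Without S2-4 these shares were 41.2% and 72.8% for the higher genes. Median gene length was 17862.5 bases for the higher, 49828 for the lower and 31471 for all genes tested. The part of strand overlap and gene length in the calls was not tested.

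**Figure D4:**
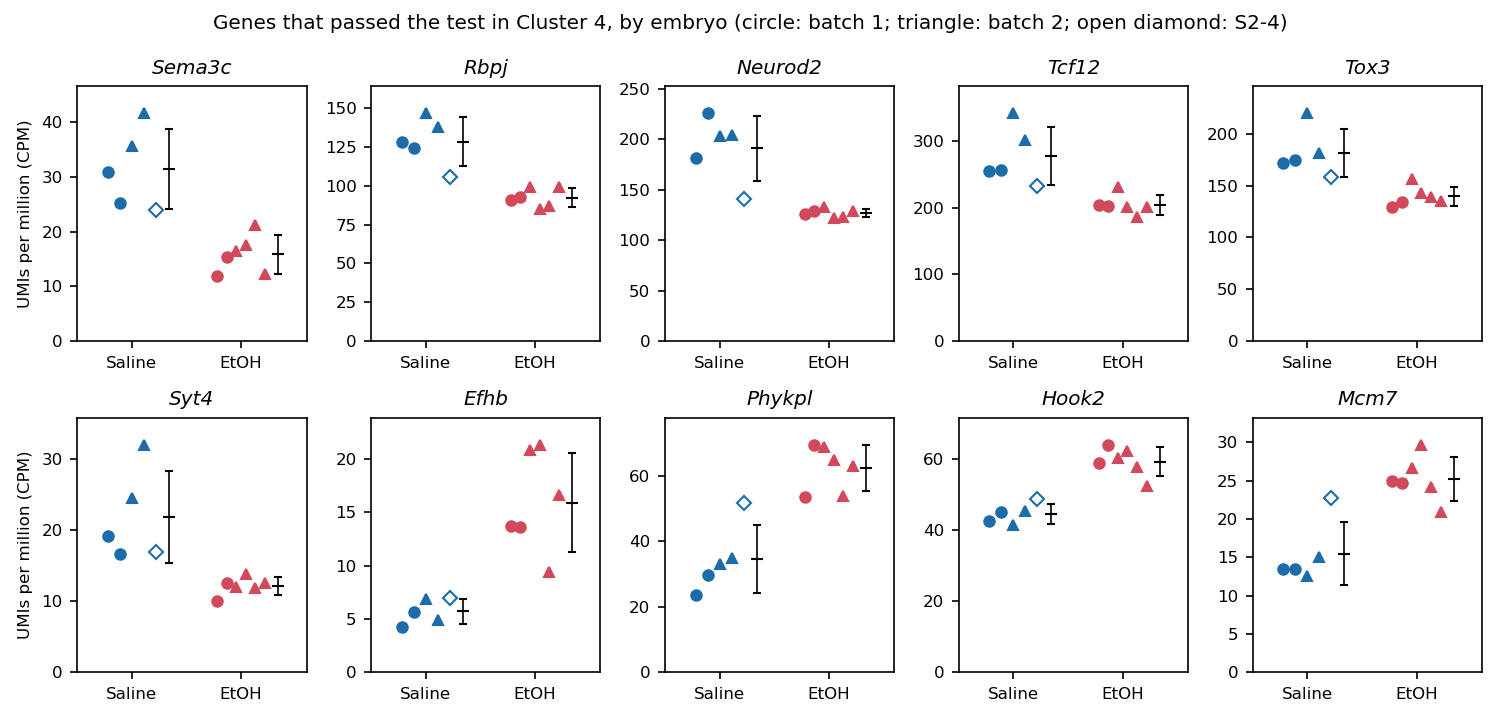
Points give the CPM of 10 genes in each embryo, with circles for batch 1, triangles for batch 2 and an open diamond for S2-4, and bars the mean and SD of each group. For Neurod2 the 6 EtOH embryos lie between 122 and 133 CPM, below all saline embryos, while S2-4 (140.9 CPM) lies closest to them.

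Without S2-4, 1015 genes were called higher (8.97% of 11311 tested) and 397 lower (3.51%), and at 1265 of these 1412 genes (89.6%) S2-4 was nearer to the mean of the EtOH embryos than to that of the other saline embryos, as it was at 7502 of all 11311 genes tested (66.3%). Median UMIs per nucleus split the embryos in the same way, with 8492 in S2-4, 5239 to 9067 in the EtOH embryos and 10758 to 12753 in the other saline embryos. With nuclei thinned to 2000 UMIs and S2-4 left out, 406 of 6725 genes tested were called, and the part of depth in the calls was otherwise not tested. The batches share no embryo and were therefore compared with each other, which was done after the values had been seen. Each batch holds 1 dam per treatment, so treatment and dam cannot be told apart within a batch. P-values there measure the spread between littermates. In batch 1 alone 4.41% of genes tested were called higher and 2.26% lower, and in batch 2 without S2-4 7.04% and 4.42%. Of 11296 genes tested in both, 311 were called higher in both, which was 62.8% of the 495 higher in batch 1 and 38.7% of the 804 in batch 2, and 1 higher gene of batch 1 was called lower in batch 2. For lower levels, 55 were called in both, 21% of 262 and 10.9% of 505, and 19 lower genes of batch 1 were called higher in batch 2. With S2-4 kept in, batch 2 gave 0 calls in edgeR, with 1263 genes at an unadjusted p under 0.05.

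**Figure D5:**
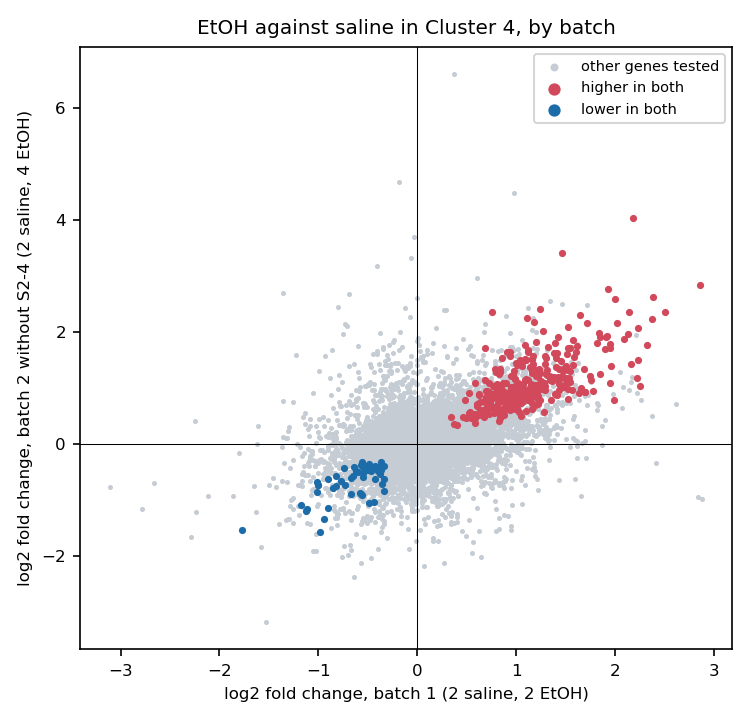
Each point is 1 of the 11296 genes tested in both batches, placed by its EtOH against saline log2 fold change in batch 1 and in batch 2 without S2-4. The 311 genes higher in both (red) and the 55 lower in both (blue) are coloured.

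Among genes called lower without S2-4 were receptors of glutamate and genes of axon guidance, which are named here after their values were seen. Gria4, an AMPA receptor subunit, had 442, 473, 580, 565 and 352 CPM in S1-1, S1-2, S2-1, S2-2 and S2-4 and 270 to 405 CPM (median 331) in the EtOH embryos. Its log2 fold change was -0.54 (adjusted p = 0.065, edgeR) with all embryos and -0.63 (adjusted p = 0.00020, edgeR) without S2-4. Grik2, a kainate receptor subunit, passed likewise at -0.50. The ionotropic glutamate receptor list had 0 of 18 genes called in either direction with all embryos (median log2 fold change -0.11), and 1 higher and 4 lower without S2-4, beside 8.97% higher and 3.51% lower of all genes tested.

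Of 46 axon guidance genes, 1 was called lower and 0 higher with all embryos (Sema3c, median log2 fold change -0.16), and 9 lower and 0 higher without S2-4, beside 3.51% of all genes. The 9 were the netrin receptor Dcc, the ligands Slit2, Sema3a, Sema3c, Sema5a and Sema6d, the semaphorin receptor Plxna4, and the ephrins Efna5 and Efnb2. Sema6d had 471 and 558 CPM in the saline embryos of batch 1, 1066 and 937 CPM in S2-1 and S2-2, 488 CPM in S2-4 and 384 to 497 CPM after EtOH. S2-1 and S2-2 were thus also far above the other saline embryos at this gene, as they were at Plxna4 with 1367 and 925 CPM against 572 to 683 CPM. Sema3c, Sema5a and Sema6d were lower in each batch alone (batch 2 without S2-4). They were called on these same embryos, so this is not an independent check.

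Of 43 synaptic adhesion genes 0 were called with all embryos (median log2 fold change 0.00), and 3 higher and 5 lower without S2-4, beside 8.97% and 3.51% of all genes tested. Among the higher ones, named after their values were seen, Lrrc4, a postsynaptic adhesion protein, had 53.2, 52.8, 47.2, 67.4 and 94.4 CPM in S1-1, S1-2, S2-1, S2-2 and S2-4 and 85.7 to 101 CPM after EtOH, so that S2-4 lay within the EtOH range. Its log2 fold change was 0.54 (adjusted p = 0.0695, edgeR) with all embryos and 0.73 without S2-4, with 0.74 in batch 1 and 0.71 in batch 2 without S2-4. Lrrtm1, of a related family, and Wnt7b, a ligand of cortical neurons, had the same arrangement, with 0.79 and 0.72 without S2-4. Of 31 Wnt pathway genes 0 were called (median -0.12), and 1 higher and 2 lower without S2-4.

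Among potassium channels, 0 of 25 were called with all embryos (median log2 fold change -0.08) and 4 were called lower without S2-4, beside 3.51% of all genes tested, namely Kcna1, Kcnh7, Kcnh8 and Kcnj6. Kcna1, an axonal channel, had 23.1 to 29.4 CPM in 4 saline embryos, 19.1 in S2-4 and 11.8 to 19.2 CPM after EtOH. Of 11 pan-neuronal genes, Neurod2 was the only one called with all embryos, and Neurod2, Slc17a6 and Syt1, the calcium sensor of transmitter release, were lower without S2-4. Of 28 presynaptic release genes 1 was lower with all embryos and 2 without S2-4, beside the same 3.51%.

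The remaining lists are read against the same shares without S2-4, 8.97% higher and 3.51% lower. Of 24 cadherin and protocadherin genes tested 0 were called, and without S2-4 0 were higher and 3 lower. Of 18 contactin and L1 family genes the counts were 0 with all embryos and 2 lower without S2-4. For 22 sodium and calcium channel genes, 17 genes of calcium exchange and release and 20 splicing regulators, they were 0 with all embryos and 1, 1 and 2 lower without S2-4. Of 27 microtubule and motor genes 2 were higher without S2-4, and of 17 heparan sulfate genes 1. Of 16 genes of apoptosis and p53 Mcl1 was higher without S2-4, and of 16 genes of oxidative stress and alcohol metabolism Aldh1b1. Of 10 R7 RGS proteins and partners, 21 melanocortin and cAMP genes, 13 GABA-A receptor genes, 10 callosal genes and 14 heat shock genes 0 were called with or without S2-4. When S2-4 was left out and the batch entered as a block, which called 8.6% of all genes tested higher and 4% lower, the heat shock genes Hspa5, Hsp90b1 and Hsph1 and 1 gene each of the callosal (Lmo4), R7 RGS (Gpr158) and melanocortin and cAMP (Adcy5) lists were called lower. A value that did not pass the test does not show equal levels.

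The study's 99 marker genes had a median log2 fold change of 0.09 with all embryos, beside 0.01 over all genes tested, and 0 were called. Without S2-4, Ctnna3, Gm26835, Nrg3os and Gm20642 were called higher and Alcam, a cell adhesion molecule, lower. These were 4 and 1 of the 99 genes, beside 8.97% higher and 3.51% lower of all genes tested. Ctnna3, an alpha-catenin, had 332, 287, 124, 163 and 678 CPM in S1-1, S1-2, S2-1, S2-2 and S2-4, and 551 to 823 CPM (median 619) after EtOH. S2-4 again lay within the EtOH range and the other 4 saline embryos below it. The log2 fold change was 1.05 ± 0.40 (adjusted p = 0.174, edgeR) with all embryos and 1.5 (adjusted p = 0.0143, edgeR) without S2-4.

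Markers of other cells were summed in the same way. The 10 interneuron markers summed to 109.0 to 262.1 CPM in saline and 55.8 to 155.7 CPM in EtOH embryos, against 6385 CPM in the cluster where they were highest, and 0 of the genes were at 0. The 9 radial glia markers summed to 133.7 to 177.8 and 149.4 to 184.0 CPM, with a mean of 163 CPM against 1449 CPM in the cluster where they were highest and rank 12 of 25 clusters. The 10 non-neuronal markers had a mean of 18.1 CPM against 88.3 CPM in Cluster 11, labelled striatal, where they were highest. The paper removed its non-neuronal clusters and a thalamic cluster before making these 25. The level in such cells is therefore not available here for comparison. The 7 intermediate progenitor markers summed to 25.2 to 51.2 and 27.9 to 43.3 CPM, and the 7 Cajal-Retzius markers to 172.0 to 342.1 and 136.7 to 207.6 CPM. The striatal, thalamic and subplate lists summed to 70.6 to 158.7 and 25.5 to 172.2 CPM, 92.5 to 233.2 and 80.9 to 147.8 CPM, and 40.4 to 101.3 and 34.5 to 50.4 CPM. Of 5 interneuron and 5 thalamic markers tested 0 were called, with median log2 fold changes of -0.73 and -0.38, and without S2-4 the interneuron gene Dlx1 was called lower. Reln, the only Cajal-Retzius marker tested, had a log2 fold change of -0.54 with all embryos and was called lower at -0.64 without S2-4 (adjusted p = 0.0436, edgeR). With the batch as a block and without S2-4, neither Dlx1 (adjusted p = 0.0978) nor Reln (adjusted p = 0.0526, edgeR) was called. The part of other cells in the gene calls was not tested.

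The treatment effect in Cluster 4 was also compared with that in Clusters 1 and 16 in the same embryos, by the difference of the effects. Against Cluster 1, 1 of 11733 genes was called (0.00852%), with 837 at an unadjusted p under 0.05, and DESeq2 called 11. Against Cluster 16, 0 of 10846 were called (0%) by edgeR, with 519 at an unadjusted p under 0.05, and DESeq2 called 12. The gene called against Cluster 1 was Nhs, a regulator of actin remodelling, which Gm15202, Gm26317 and Gm23794 overlap on the other strand. In Cluster 4 it had 47.8, 33.6, 55.5, 48.5 and 26 CPM in S1-1, S1-2, S2-1, S2-2 and S2-4 and 26.1 to 39.3 CPM (median 31.3) after EtOH, and in Cluster 1 it had 51.5, 35.3, 47.8, 63.5 and 24.2 CPM and 8.68 to 20.3 CPM (median 12.7). The EtOH embryos overlapped the saline embryos in Cluster 4 and did not in Cluster 1. Its log2 fold change was -0.41 in Cluster 4 (adjusted p = 0.223, and -0.55 with an adjusted p of 0.0051 without S2-4, edgeR) and -1.74 in Cluster 1, and the difference of 1.29 ± 0.18 passed the test (adjusted p = 0.00197, edgeR). Without S2-4, 24 genes were called against Cluster 1 and 3 against Cluster 16. For Nhs against Cluster 16, where the fold change was -1.34, the difference of 0.97 did not pass (adjusted p = 0.494, edgeR).

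Neurod2 had log2 fold changes of -0.69 in Cluster 1 (adjusted p = 0.0433, edgeR) and -0.56 in Cluster 16 (adjusted p = 0.0904, edgeR), and the differences from its effect in Cluster 4 did not pass the test (adjusted p = 0.986 and 1, edgeR). Sema3c had -0.34 in Cluster 1 and 0.03 in Cluster 16 beside -0.99 in Cluster 4, and these differences did not pass (adjusted p = 0.689 and 1, edgeR).

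Nuclei of EtOH embryos held fewer UMIs. The median per nucleus was 12634 in S1-1, 12753 in S1-2, 12422 in S2-1, 10758 in S2-2 and 8492 in S2-4, and 5239 to 9067 in the EtOH embryos. S2-4 lay within the EtOH range and the other saline embryos above it. Group means were 11412 ± 1821 (SD, n = 5) and 8037 ± 1401 (SD, n = 6), with an exact permutation p of 0.00866 (two-sided, adjusted over 7 measures 0.0303) and 0.019 when labels were exchanged within batches. Genes per nucleus followed, at 3258 ± 253 and 2659 ± 283 (exact permutation p = 0.00433, adjusted 0.0303, and 0.00952 within batches). Without S2-4 the differences were -4105 UMIs and -711 genes, each with an exact permutation p of 0.00476, the smallest that 4 against 6 embryos allow. This p followed from the choice of embryo, since S2-4 was the only saline embryo within the EtOH range for either measure. After each nucleus was thinned to 2000 UMIs, which left out 16 of 3884 nuclei, the numbers were 1083 ± 25.5 and 1070 ± 3.40 genes, with an exact permutation p of 0.236, and 0.0333 without S1-2.

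Because depth differed, shares of nuclei with a UMI were taken at 2000 UMIs per nucleus, over all 11 embryos and beside the interneuron Cluster 7, in which Fezf2 and Tbr1 in particular should be absent. A Bcl11b UMI was found in 84.5% of Cluster 4 nuclei and 33.5% of Cluster 7 nuclei, a Sox5 UMI in 99.9% and 62.0%, and a Tbr1 UMI in 17.8% and 1.78%. Fezf2 was found in 14.3% and 0.831%, and in 47.5% and 3.91% without thinning, at median depths of 9235.5 and 9387 UMIs. The Fezf2 share averaged 16% ± 2.48 (SD) over the 5 saline embryos and 12.9% ± 2.93 (SD) over the 6 EtOH embryos, with an exact permutation p of 0.1 (adjusted 0.265 over 7 shares). The adjusted p of each share given here at 2000 UMIs was above 0.05. With thinning to 1000 UMIs the Fezf2 share passed, with a difference of -2.08 percentage points (exact permutation, adjusted p = 0.0379).

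Cluster 4 made up 24.1%, 20.6%, 18.5%, 22.5% and 25.4% of the PN nuclei in S1-1, S1-2, S2-1, S2-2 and S2-4, and 22.7% to 29.9% in the EtOH embryos. The means were 22.2% ± 2.76 (SD, n = 5) and 25.9% ± 2.91 (SD, n = 6), a difference of 3.69 percentage points, and 4.48 without S2-4. The groups overlapped. The exact permutation p was 0.0693 (two-sided, adjusted over 7 measures 0.121) and 0.0762 within batches. Without S2-4 it was 0.0476, which followed in part from the choice of embryo, since S2-4 had the highest share of the saline embryos. The share is read as a description only and no result is drawn from these p-values. The reason is that Ctnna3, a gene that defines the cluster, was called between the treatments without S2-4.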

How the data were processed

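Nuclei of mouse embryonic cortex were profiled by snRNA-seq with the 10x 3′ v3.1 chemistry. The authors aligned reads with Cell Ranger at its default parameters (mm10), kept nuclei with 500 to 10000 genes and at most 100000 UMIs, and clustered them in Seurat 4.1.0 after SCTransform and Harmony over batch and dam. For each embryo and cluster, the deposited tables hold raw UMI counts for 23513 genes, and 0 columns belonged to another series. All 3884 Cluster 4 nuclei lay within those limits, with 926 to 71252 UMIs. A doublet caller is not given in the sources used here, and none was run.

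Counts were summed per embryo over the Cluster 4 nuclei, 42391562 UMIs in all, and tested with edgeR 4.0.16 (quasi-likelihood with the robust option, TMM, filterByExpr, Benjamini-Hochberg over all genes tested) in R 4.3.3. Alternatives were DESeq2 1.42.0 and voom in limma 3.58.1 with a random effect for dam. Shares and depths per nucleus were compared over embryos by two-sided exact permutation tests over 462 splits, and over 210 within batches, where the smallest p is 0.00476. Sums, shares and plots were made in Python 3.11.15 (pandas 2.3.3, NumPy 2.4.6, matplotlib 3.10.9, SciPy 1.17.1). Principal components used log2 CPM with a prior count of 2. Annotation came from GENCODE M21 on GRCm38, which matched 23125 genes (98.3%), and promoters from RefSeq. Between 1681417 and 8910835 UMIs per embryo stood behind each level, and SDs between embryos include the counting error.

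Genes were named by a rule: the 3 markers given for the cluster, up to 12 called genes per direction with the smallest adjusted p, up to 4 called members of each gene list or else the 2 with the highest mean count, members of the subcortical and callosal lists, and up to 3 called genes per direction against another cluster. Names outside it, which include the genes called only without S2-4, further mitotic genes, Gm28928, Nfe2l3 and Slc17a6, were chosen after their values were seen. The members and the lists were chosen with earlier results of these data known. Batch and dam as terms, each embryo left out, another scaling, no filter on low counts and thinned nuclei were tried as alternatives. Some genes that the rule covers are not reported here.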

Additional observations from a re-analysis of the deposited data

Results flagged for a closer look

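In 18 of 214 groups of embryos examined for the named genes and measures, the highest or lowest embryo stood apart from the rest of its group by Dixon's criterion. Chance flags about 1 in 20 groups. Of the 18 embryo values, 10 came from E1-1, the shallowest library, 3 each from S2-2 and S2-4, and 1 each from E1-2 and E2-1.

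E1-1 had a median of 5239 UMIs per nucleus against 8232 to 9067 in the other EtOH embryos, and 2088 genes against 2711 to 2844. It also had a Bcl11b UMI in 90.2% of thinned nuclei against 80.2% to 83.4%. Among genes it was highest for Tbr1 (115 CPM), Prdx2 (67.2 CPM) and Dnajb6 (123 CPM), and lowest for Gm48678 (37.5 CPM), Gm2087 (12.5 CPM), Ptprd (12586 CPM) and Celf2 (9435 CPM).

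S2-4 had a median of 2812 genes per nucleus against 3325 to 3429 in the other saline embryos, and it was highest of them for Gm2087 (16.3 CPM) and Mcm7 (22.7 CPM). S2-2 was highest of the saline embryos for Lhx2, a regulator of cortical fate, with 77.8 CPM against 23.8 to 32.4, and for the lysophosphatidic acid receptor Lpar1 (19.2 CPM), and lowest for Pde4b (449 CPM). E1-2 was highest of the EtOH embryos for Gria2 (1652 CPM), and E2-1 had a Sox5 UMI in 99.8% of thinned nuclei against 100% in the others.

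The EtOH effect on Nhs in Cluster 4 differed from that in Cluster 1 by 1.29 on the log2 scale in a test of the difference itself (adjusted p = 0.00197, edgeR). Beside this, S2-4 had the lowest Nhs level of the saline embryos in both clusters.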

How the results depend on the processing

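The number of genes called between EtOH and saline treated embryos, 82 with all embryos, depended on the setting. It was 487 with DESeq2 (310 higher and 177 lower), 3 with upper-quartile scaling, 1 with total UMIs only, 408 without the filter on low counts, 1 with counts summed per dam, 776 in batch 1 alone, 0 in batch 2 alone, 11 with nuclei thinned to 2000 UMIs and 150 without the 5% of nuclei with most UMIs. It was 113 with limma voom and dam as a random block (94 higher and 19 lower) and 109 with sums thinned to the smallest total (76 higher and 33 lower), beside 38 higher and 44 lower in the edgeR fit. With the batch as a replicate block it was 1, and 1425 when S2-4 was also left out. Leaving out each embryo gave 0 to 1412, the highest without S2-4 and 0 to 3 without any other. Alternatives chosen after seeing the data left out S2-4 as well and gave 1335 in batch 2 alone, 1334 with DESeq2, 528 with counts summed per dam, 1271 with limma voom and 406 with thinned nuclei. The cause was not tested. The 25 named genes that were called kept their direction in 706 of 706 values under these alternatives. That outcome was close to fixed, since the genes were chosen on the same embryos. Their calls were mostly lost, for 24 with the batch as a block, 25 with counts summed per dam and 22 with upper-quartile scaling. Deviations from group means correlated on average at -0.0107 between saline and EtOH embryos of the same batch (16 pairs). Between those of different batches the mean was 0.0126 (14 pairs). Whether batch shifts embryos together was not tested.

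For the difference of effects from Cluster 1 (1 call), DESeq2 gave 11, no filter 86, thinned nuclei 14 and leaving out each embryo 1 to 24. For Cluster 16 (0 calls), the values were 12, 29, 2 and 0 to 3. Genes per nucleus at 2000 UMIs differed by -21 to -5.0 when each embryo was left out, and the value of -21, without S1-2, had an exact permutation p of 0.0333. Without thinning, shares of nuclei with a UMI differed after EtOH by -16.4 (Fezf2) and -12.2 (Tbr1) percentage points (exact permutation, adjusted p = 0.0121 for each). Unthinned shares rise with depth, which was lower in EtOH embryos. At 2000 UMIs the differences were -3.04 and -1.57 points (exact permutation, adjusted p = 0.265 and 0.383). With thinning to 1000 UMIs the Fezf2 difference was -2.08 points (exact permutation, adjusted p = 0.0379). Hs3st5 and Lsamp turned to -0.50 and -0.37 on the log2 scale in batch 1 alone (adjusted p = 0.00313 and 0.0251, edgeR). Nuclei without a UMI at 2000 UMIs may still express a gene, and 2 dams per treatment limit every comparison.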

Other observations

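Of the 366 genes that passed the test in the same direction in both batches (batch 2 without S2-4), 311 were higher and 55 lower. Among the lower ones, Adgrl3, a latrophilin that binds teneurins and FLRT proteins, had 724, 706, 1200, 901 and 562 CPM in S1-1, S1-2, S2-1, S2-2 and S2-4 and 437 to 631 CPM in the EtOH embryos, with log2 fold changes of -0.58 in batch 1 and -0.87 in batch 2. Tcf7l1, a repressor of Wnt targets, had 27.9, 33.0, 43.6, 36.4 and 23.4 CPM and 15.7 to 24.4 CPM, with -0.85 and -0.79. In both genes S2-4 overlapped the EtOH embryos and the other saline embryos did not. These genes were chosen after their values were seen.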
